A study of Mus musculus with 6 samples.

Results

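Aminoacyl-tRNA synthetases are the enzymes that attach each amino acid to its tRNA, the step that fixes the genetic code and feeds the ribosome. Protein synthesis runs both in the cytosol and in mitochondria, and for most amino acids separate nuclear genes encode the cytosolic and the mitochondrial enzyme. A few genes, such as Gars and Kars, supply both compartments. Several cytosolic synthetases are held together with scaffold proteins in the multi-tRNA synthetase complex, and many cytosolic synthetase genes are targets of ATF4, the transcription factor of the amino acid and stress responses. Pancreatic acinar cells, which make the digestive enzymes, have among the highest rates of protein synthesis of any cell type.

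The synthetase genes were compared between whole pancreata of Pdx1Cre;Sirt1ex4F/F mice and of their Pdx1Cre controls. The genes were taken by name, as every gene symbol made of the letter of an amino acid and "ars" (with a final 1, 2, a or b where present) or equal to Eprs, Eprs1, Ears2 or Pars2, among transcript clusters with exactly 1 annotated symbol. This gave 34 of the 22180 genes tested, 18 cytosolic or dual and 16 mitochondrial, the latter being those whose symbol ends in 2. Each gene was read by the cluster with the highest mean over the 6 arrays, and only Nars2 had a choice, between 2 clusters. Aars, which shares its cluster with Exosc6, and Dars, which was under no cluster with its symbol alone, are examples of synthetase genes not analysed here. Wars2 was the only member with a mean below 4.66, a limit for dim signal set so that 95% of olfactory receptor genes, largely silent in pancreas, had lower means.

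RNA was taken from the pancreas of 6 male mice of 6 months, 3 per genotype, and hybridized to Affymetrix GeneChip Mouse Gene arrays, 1 array per sample. Mice of both groups carried the Cre transgene of B6.FVB-Tg(Ipf1-cre)6Tuv/J, called Pdx1Cre, and the second group also had both copies of the floxed Sirt1 allele of B6;129-Sirt1tm1Ygu/J, called Sirt1ex4, so that Cre removes exon 4 in cells with an active Pdx1 promoter. This promoter acts in the endocrine and, as a mosaic, the exocrine epithelium from embryonic development, a shorter Sirt1 protein remains, and the other cells of the organ keep Sirt1. Values are log2 values of the Robust Multi-array Average (RMA) method, so that a difference of 1 is a change of 2-fold, and each difference is Sirt1-deficient minus control from limma. The control and the Sirt1-deficient group are numbered by pancreas as in the labels. Sirt1 itself read 5.84, 5.78 and 5.80 in the controls, against 5.59, 5.69 and 5.83 in Sirt1-deficient pancreata, a difference of -0.11 (standard error 0.11), and its cluster does not separate exon 4 from the rest of the gene. By RT-qPCR the paper reports reduced Sirt1 transcript in total pancreas and in isolated islets of these mice. All 8 measured acinar markers and all 8 measured islet markers had means above 4.66. Any 2 arrays correlated at 0.974 to 0.984 over all clusters. The first principal component, which held 28.9% of the variance, did not follow genotype: Pdx1Cre pancreas 2 (22.0) stood with the Sirt1-deficient pancreata 1 and 2 (9.94 and 9.56), and Sirt1-deficient pancreas 3 (-16.7) with the Pdx1Cre pancreata 1 and 3 (-12.6 and -12.2). Whole tissue was measured, so fewer cells of a type and less RNA per cell cannot be told apart.

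Of the 18 cytosolic or dual synthetase genes, 16 had a lower mean in the Sirt1-deficient pancreata and 2, Hars and Lars, had a higher one. The median log2 difference of these genes was -0.18, against -0.017 over all genes tested, of which 54.9% were negative. The 16 mitochondrial genes split into 9 negative and 7 positive values, with a median of -0.031. Rars alone passed at the study's threshold of an unadjusted p under 0.01, which is 1 lower gene of 34, beside 0.888% of all genes lower and 0.739% higher at that threshold; no synthetase gene was higher. At an unadjusted p under 0.05 there were 6 lower genes, Rars, Cars, Tars, Qars, Farsa and Nars, all cytosolic, and none higher, beside 3.76% of all genes lower and 2.89% higher. As a share, 6 lower genes are 17.6% of the 34 and 33.3% of the 18 cytosolic genes. After Benjamini-Hochberg adjustment over all genes none of the 34 passed in limma at an adjusted p under 0.05, beside 0.0135% of all genes in either direction.

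Of the 6 genes counted at the looser threshold, all but Rars depended on single arrays. With the Pdx1Cre pancreas 2 left out, 9 cytosolic genes were lower at an unadjusted p under 0.05 and 4 at 0.01, and with the Sirt1-deficient pancreas 3 left out the counts were 6 and 3. Without the Pdx1Cre pancreas 1 or 3 the count at 0.05 was 2 each, and without the Sirt1-deficient pancreas 1 or 2 it was 1 and 3, where Ears2 was counted in addition in the last case. The counts over all 22180 genes moved as well. Lower at 0.05 were 835 genes with all arrays, 1145 without the Pdx1Cre pancreas 2, 805 and 742 without the Pdx1Cre pancreas 1 and 3, and 590, 727 and 877 without the Sirt1-deficient pancreas 1, 2 and 3. Lower at 0.01 were 197 genes with all arrays, 292 without the Pdx1Cre pancreas 2 and 219 without the Sirt1-deficient pancreas 3. When genes with a mean below 4.66 were left out of the fit, 7 cytosolic genes, the same 6 and Iars, were lower at 0.05 and 1 at 0.01, beside 4.48% and 1.32% of the 12669 genes that remained.

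**Figure D1:**
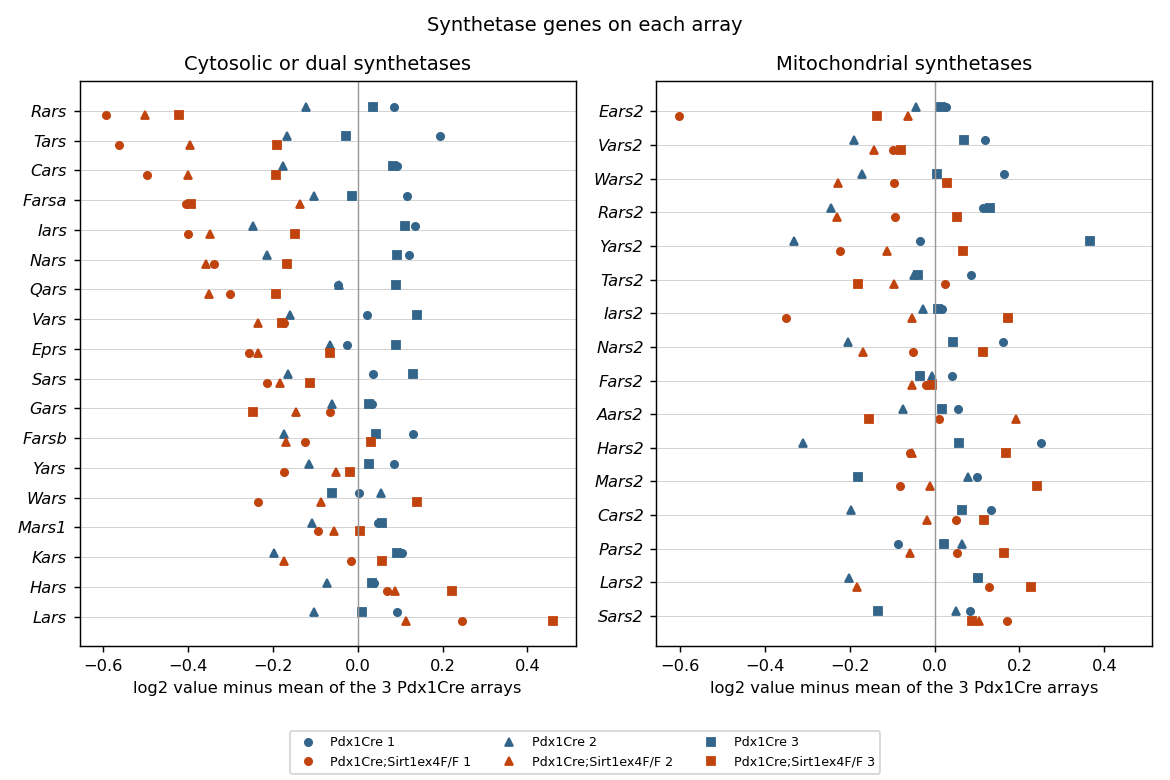
Log2 value of each synthetase gene on each array, minus the mean of the 3 Pdx1Cre arrays of that gene (x axis), with cytosolic or dual genes on the left and mitochondrial genes on the right, ordered by the genotype difference; blue marks Pdx1Cre and orange Pdx1Cre;Sirt1ex4F/F, and circles, triangles and squares the pancreata 1, 2 and 3. The orange points lie left of all blue points for 7 cytosolic genes and 1 mitochondrial gene, and right of them for 2 cytosolic genes and 1 mitochondrial gene.

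Rars, which charges tRNA with arginine and belongs to the multi-tRNA synthetase complex, fell. It read 8.78, 8.57 and 8.73 in the controls, against 8.10, 8.19 and 8.27 in Sirt1-deficient pancreata. Every Sirt1-deficient pancreas lay below every control. The group values were 8.69 ± 0.11 (SD, n = 3) and 8.19 ± 0.09 (SD, n = 3), which is 1.42-fold lower. The log2 difference of Rars was -0.50 (standard error 0.11, unadjusted p = 0.00112 and adjusted p = 0.301 from limma). The 2-sided exact permutation test gave p = 0.1, the smallest that 3 against 3 arrays allow. Rars passed at an unadjusted p under 0.01 under each of the 13 other settings tried, with each array left out among them.

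Tars and Cars, the threonyl- and cysteinyl-tRNA synthetase genes, which stand outside the complex, had the next largest differences. Tars read 8.69, 8.33 and 8.47 in the controls, against 7.94, 8.10 and 8.31 in Sirt1-deficient pancreata. Cars read 8.01, 7.74 and 8.00 in the controls, against 7.42, 7.52 and 7.73 in Sirt1-deficient pancreata. In both genes the groups did not overlap, but the Pdx1Cre pancreas 2 and the Sirt1-deficient pancreas 3 lay next to each other. The log2 difference was -0.38 (standard error 0.14, unadjusted p = 0.0203 and adjusted p = 0.660 from limma, exact permutation p = 0.1) for Tars, or 1.30-fold lower. For Cars it was -0.36 (standard error 0.13, unadjusted p = 0.0179 and adjusted p = 0.650 from limma, exact permutation p = 0.1), or 1.29-fold lower.

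Farsa encodes the catalytic alpha subunit of the cytosolic phenylalanyl-tRNA synthetase. It read 7.06, 6.84 and 6.93 in the controls, against 6.54, 6.81 and 6.55 in Sirt1-deficient pancreata. Here the Sirt1-deficient pancreas 2, not 3, came closest to the controls. The log2 difference of Farsa was -0.31 (standard error 0.12, adjusted p = 0.683 from limma). Its partner Farsb, the beta subunit that edits wrongly charged tRNA, had a difference of -0.09 (standard error 0.12, adjusted p = 0.951 from limma) with overlapping groups. The interval of Farsb, from -0.36 to 0.18 (95%, limma), includes the value of Farsa, and the difference between the subunits was not tested.

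Qars, the glutaminyl enzyme of the complex, read 8.22, 8.22 and 8.36 in the controls, against 7.97, 7.92 and 8.08 in Sirt1-deficient pancreata. The gap between the groups was wider than in Tars or Cars, and the log2 difference of Qars was -0.28 (standard error 0.11, adjusted p = 0.670 from limma). Nars, for asparagine, read 10.13, 9.79 and 10.10 in the controls, against 9.67, 9.65 and 9.84 in Sirt1-deficient pancreata. Iars, the isoleucyl enzyme of the complex, read 9.63, 9.24 and 9.60 in the controls, against 9.09, 9.14 and 9.34 in Sirt1-deficient pancreata. In Nars and Iars the Sirt1-deficient pancreas 3 lay above the Pdx1Cre pancreas 2, so the groups overlapped. Their log2 differences were -0.29 (standard error 0.13) for Nars and -0.30 (standard error 0.14) for Iars, with adjusted p-values of 0.740 and 0.752 from limma.

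Lars, the leucyl enzyme of the complex that also senses leucine for mTORC1, had the largest positive value. It read 8.00, 7.81 and 7.92 in the controls, against 8.15, 8.02 and 8.37 in Sirt1-deficient pancreata. All Sirt1-deficient pancreata lay above all controls. The log2 difference of Lars was 0.27 (standard error 0.12, unadjusted p = 0.0509 and adjusted p = 0.752 from limma, exact permutation p = 0.1), or 1.21-fold. Hars, for histidine, was the second, with a log2 difference of 0.13 (95% interval from -0.11 to 0.36) and groups that did not overlap either.

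Vars, the valyl enzyme, read 7.61, 7.43 and 7.73 in the controls, against 7.42, 7.35 and 7.41 in Sirt1-deficient pancreata. The groups of Vars were separated by little, and its log2 difference was -0.20 (standard error 0.11, adjusted p = 0.827 from limma). Of the remaining cytosolic genes, Eprs, which carries the glutamyl and the prolyl enzyme in 1 protein, had a log2 difference of -0.19, Sars, whose seryl-tRNA is also the start of selenocysteine synthesis, -0.17, and Gars, which serves both compartments, -0.15. The log2 differences of Yars, Wars, Mars1 and Kars lay between -0.08 and -0.04. Wars, the interferon-induced tryptophanyl enzyme, had the Pdx1Cre pancreas 2 as its highest control, at 9.69. Of these, none had a p under 0.05 in limma, and Gars alone had groups that did not overlap.

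In all, the groups of the 18 cytosolic genes did not overlap in 7 genes that were lower and 2 that were higher, and of the 16 mitochondrial genes in 1 of each kind. This compares with 6.51% of all genes lower and 5.23% higher without overlap, or 6.82% and 6.47% of those with a mean above 4.66. The 7 lower genes were Rars, Tars, Cars, Farsa, Qars, Vars and Gars.

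**Figure D2:**
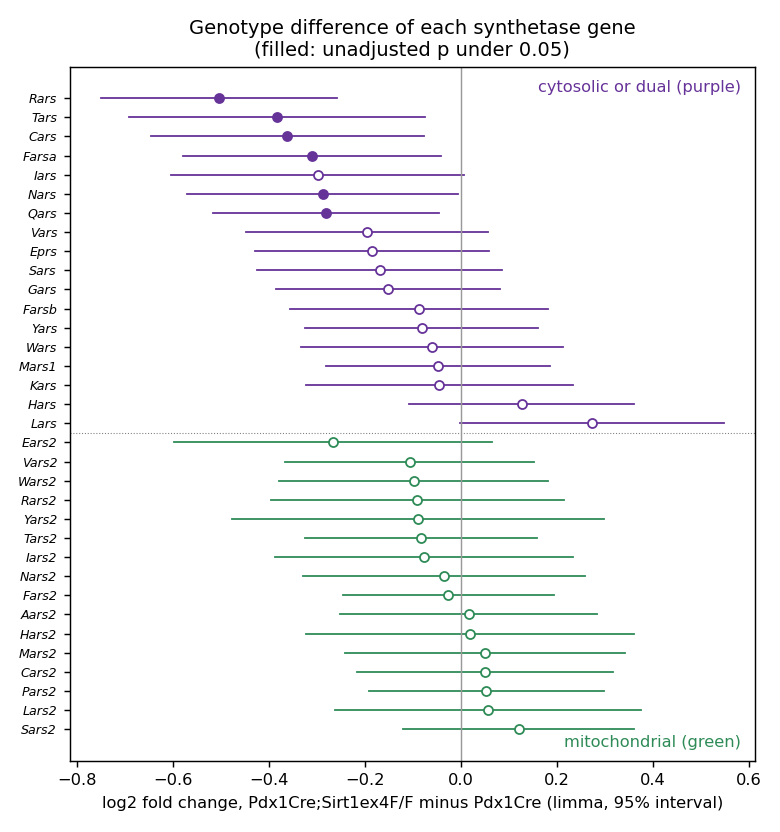
Log2 fold change of each synthetase gene, Pdx1Cre;Sirt1ex4F/F minus Pdx1Cre (x axis), with its 95% interval from limma, cytosolic or dual genes in purple above and mitochondrial genes in green below the dotted line. Filled points mark an unadjusted p under 0.05, which 6 cytosolic genes reached, from Rars at -0.50 to Qars at -0.28.

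Among the mitochondrial genes the differences ran from -0.27 in Ears2 to 0.12 in Sars2, and none had a p under 0.05 in limma. Ears2, which charges mitochondrial tRNA with glutamate, read 6.78, 6.71 and 6.77 in the controls, against 6.15, 6.70 and 6.62 in Sirt1-deficient pancreata. The groups did not overlap, but the size of the difference rested on the Sirt1-deficient pancreas 1. The log2 difference of Ears2 was -0.27 (standard error 0.15, adjusted p = 0.817 from limma), and -0.10 without that pancreas. Without the Sirt1-deficient pancreas 2 it was -0.37, and Ears2 then had an unadjusted p under 0.05. Sars2, the mitochondrial seryl enzyme, read 6.20, 6.16 and 5.98 in the controls, against 6.29, 6.22 and 6.20 in Sirt1-deficient pancreata. Its groups were just apart, with a log2 difference of 0.12 (95% interval from -0.12 to 0.36). Vars2, the mitochondrial valyl enzyme, read 6.25, 5.94 and 6.20 in the controls, against 6.03, 5.99 and 6.05 in Sirt1-deficient pancreata. These groups overlapped, with a log2 difference of -0.11 (standard error 0.12).

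The other 13 mitochondrial genes all had overlapping groups. Wars2, Rars2, Yars2, Tars2, Iars2, Nars2 and Fars2 had log2 differences from -0.10 to -0.03, and Aars2, Hars2, Mars2, Cars2, Pars2 and Lars2 from 0.02 to 0.06. Yars2 had the widest interval of them, from -0.48 to 0.30 (95%, limma), since its controls ran from 6.12 to 6.82. Fars2 had the narrowest, from -0.25 to 0.19, with all 6 arrays between 6.42 and 6.52. The second cluster of Nars2 had a log2 difference of -0.11, against -0.04 in the cluster used.

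Mitochondria have no glutaminyl-tRNA synthetase of their own: Ears2 also loads glutamate onto the tRNA for glutamine, and the amidotransferase made of Qrsl1, Gatb and Gatc converts it. Of these 3 genes and Mtfmt, which formylates the initiator methionyl-tRNA, none had a p under 0.05 in limma, and 2 had a negative and 2 a positive value. Of 11 measured mitochondrial translation factors none had such a p either, with 5 negative and 6 positive values and a median of 0.018. Over all genes 3.76% were lower and 2.89% higher at that threshold, so lists this short could well hold none.

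The synthetase genes tended to vary together within the groups. The median over all clusters of an array was 4.48, 4.57 and 4.48 in the controls, against 4.54, 4.54 and 4.49 in Sirt1-deficient pancreata. Like the first principal component, it set the Pdx1Cre pancreas 2 with the Sirt1-deficient pancreata 1 and 2. The part of such differences between whole arrays in the synthetase values was not tested. The Pdx1Cre pancreas 2 was the lowest control in 16 of the 18 cytosolic and in 12 of the 16 mitochondrial genes, compared with 41.2% of all genes tested and 52.2% of those with a mean above 4.66. The Sirt1-deficient pancreas 3 was the highest of its group in 15 of the 18 and in 12 of the 16, compared with 40.7% and 50.0%. The low place of the Pdx1Cre pancreas 2 was not particular to the synthetases. The Pdx1Cre pancreas 2 was also the lowest control in all 11 measured mitochondrial translation factors and all 7 genes of the selenocysteine tRNA pathway. In cytosolic elongation and release factors it was so in 7 of 12, and in acinar markers in 3 of 8. The Sirt1-deficient pancreas 3 was the highest of its group less often in these lists. It was so in 7 of 11 mitochondrial translation factors and 4 of 7 selenocysteine genes. In elongation and release factors it was so in 4 of 12, and in acinar markers in 1 of 8. After each gene was centred on its own mean, the mean of the cytosolic genes was 0.155, -0.039 and 0.138 in the controls, against -0.145, -0.116 and 0.007 in Sirt1-deficient pancreata. The groups overlapped on this scale, because the Pdx1Cre pancreas 2 lay below the Sirt1-deficient pancreas 3. The mean of the mitochondrial genes was 0.099, -0.100 and 0.048 in the controls, against -0.061, -0.057 and 0.071 in Sirt1-deficient pancreata, so it overlapped more. Both classes followed the same order within a group in the Pdx1Cre pancreata, and in both the Sirt1-deficient pancreas 3 was the highest of its group.

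Subtracting the mitochondrial from the cytosolic mean on the same array takes out what the classes share. This difference of centred log2 means was 0.056, 0.060 and 0.090 in the controls, against -0.083, -0.059 and -0.065 in Sirt1-deficient pancreata. The groups did not overlap. Each gene was centred on its mean over all arrays, which forces the group means to opposite signs of equal size. The signs therefore carry no information beyond the gap between the groups. The group means differed by -0.138, Sirt1-deficient minus control. No test was made of this difference, since the genes were chosen with earlier results of the arrays known.

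**Figure D3:**
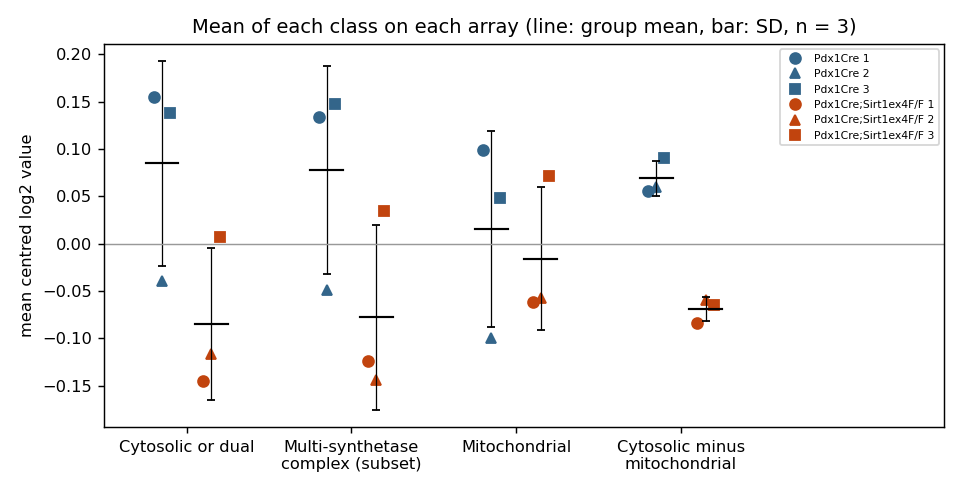
Mean log2 value of each class on each array after centring each gene on its mean over the 6 arrays (y axis), with the genes of the multi-tRNA synthetase complex as a subset of the cytosolic ones, for Pdx1Cre (blue) and Pdx1Cre;Sirt1ex4F/F (orange) pancreata 1, 2 and 3 (circle, triangle, square), with the group mean as a line and the SD as a bar. The groups overlap in each class, while the cytosolic minus mitochondrial difference at the right is 0.056 to 0.090 in the controls and -0.083 to -0.059 in the Sirt1-deficient pancreata.

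The same comparison can be made amino acid by amino acid, since 15 cytosolic and 15 mitochondrial genes form 16 pairs of partners, with Eprs and Fars2 in 2 pairs each. Gars, Kars and Qars have no mitochondrial partner and Aars2 had no cytosolic one here. The cytosolic gene had the lower difference in 11 of the 16 pairs, with a median gap of -0.16 on the log2 scale. The gap was -0.41 between Rars and Rars2 and also -0.41 between Cars and Cars2. The log2 value of Cars minus that of Cars2 was 0.92, 0.97 and 0.98 in the controls, against 0.41, 0.57 and 0.65 in Sirt1-deficient pancreata, a clear gap in which the Pdx1Cre pancreas 2 no longer stood apart. For Rars minus Rars2 it was 1.93, 2.08 and 1.86 against 1.46, 1.69 and 1.48, again without overlap. Lars and Lars2 ran the other way, with 1.60, 1.71 and 1.52 in the controls, against 1.73, 1.91 and 1.84 in Sirt1-deficient pancreata. Levels of different probes cannot be set against each other, so only the change of these values between the groups can be read, and with 3 against 3 arrays no pair could reach an exact permutation p under 0.1.

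**Figure D4:**
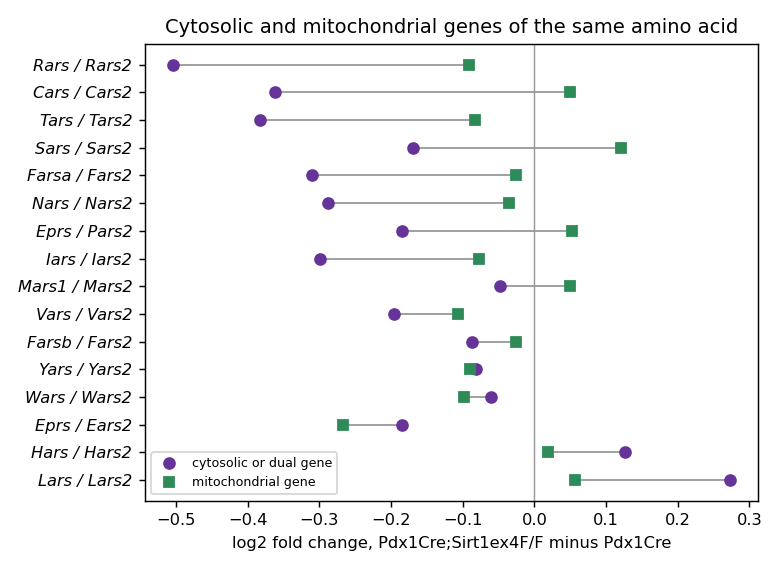
Log2 fold change, Pdx1Cre;Sirt1ex4F/F minus Pdx1Cre (x axis), of the cytosolic or dual gene (purple circle) and the mitochondrial gene (green square) for each of 16 pairs that charge the same amino acid, ordered by the gap. The purple point lies to the left in 11 pairs, from Rars and Rars2 with a gap of -0.41, and to the right in 5, with Lars and Lars2 at 0.22.

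The 7 measured synthetases of the complex had a median log2 difference of -0.19, with 6 negative and 1 positive, and ranged from -0.50 in Rars to 0.27 in Lars. The 11 outside it had a median of -0.17, with 10 negative and 1 positive. Of the 3 scaffold proteins listed for the complex, 2 were measured here, and Aimp2 was not. Eef1e1 (AIMP3) was the 1 of these lower at an unadjusted p under 0.01 in limma, beside 0.888% of all genes. It read 8.05, 7.77 and 8.06 in the controls, against 7.35, 7.58 and 7.38 in Sirt1-deficient pancreata, with no overlap. The log2 difference of Eef1e1 was -0.52 (standard error 0.12, unadjusted p = 0.00197 and adjusted p = 0.391 from limma, exact permutation p = 0.1), or 1.44-fold lower, and it passed at an unadjusted p under 0.01 whichever array was left out. Aimp1, another scaffold protein, had a log2 difference of -0.05 (95% interval from -0.32 to 0.21).

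Synthetases fall into 2 families of unrelated catalytic fold. The 19 genes of class I, with Eprs counted there, had 15 negative values and a median log2 difference of -0.09, and the 15 of class II had 10 negative values and a median of -0.04. Each family held 3 of the 6 genes lower at an unadjusted p under 0.05 in limma, beside 3.76% of all genes lower.

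Of the 12 measured cytosolic synthetase genes listed as ATF4 targets, 11 had a negative value, with a median log2 difference of -0.18, and the 6 other cytosolic genes had 5 negative values and also a median of -0.18. Cars, Tars and Nars, with a p under 0.05, were among the 12, and Rars, Qars and Farsa among the 6. At an unadjusted p under 0.05 in limma, 3.76% of all genes were lower and 2.89% higher, and 0.888% were lower at 0.01. Of 28 other genes of the ATF4 pathway, 3 were lower at 0.05, 1 of these at 0.01, and none was higher. These 28 had 17 negative values and a median of -0.07. The lower ones were Slc7a11, the cystine transporter, at a log2 difference of -0.91 (standard error 0.17), or -0.54 when its 2 clusters were averaged, Sesn2, a sensor of leucine and of stress, at -0.35 (standard error 0.13) and Eif2ak3, the kinase PERK, at -0.26 (standard error 0.10). Sesn2 was no longer under 0.05 without the Pdx1Cre pancreas 3 or the Sirt1-deficient pancreas 1, and Eif2ak3 without either of the Pdx1Cre pancreata 1 and 2 or the Sirt1-deficient pancreata 2 and 3, while Slc7a11 fell at 0.01 whichever array was left out.

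ATF4 binds with C/EBP factors to a composite element whose core can be written TGATGNAA. RefSeq promoters (GRCm38.p6, from 250 bases before to 50 after the start of the gene) were used for 25 of the 34 genes, and not for Cars, Hars, Hars2, Lars, Nars, Pars2, Rars, Vars and Wars. TGATGNAA, on either strand, was found in 4 of 11 cytosolic and 0 of 14 mitochondrial promoters, and in 4.51% of the 27025 genes with a promoter in the RefSeq table. The promoters with a match are shown because all 4 belong to the listed ATF4 targets. That of Qars is shown as an example without a match from the 6 genes with a p under 0.05. Farsa, also among the 6, had no match either. Of the 7 listed ATF4 targets with a promoter, 4 had a match, and Eprs, Mars1 and Sars had none. Capitals mark the match, which reads TTGCATCA or TTTCATCA where it lies on the opposite strand.
Tars (chr15:11399609-11399908, minus strand): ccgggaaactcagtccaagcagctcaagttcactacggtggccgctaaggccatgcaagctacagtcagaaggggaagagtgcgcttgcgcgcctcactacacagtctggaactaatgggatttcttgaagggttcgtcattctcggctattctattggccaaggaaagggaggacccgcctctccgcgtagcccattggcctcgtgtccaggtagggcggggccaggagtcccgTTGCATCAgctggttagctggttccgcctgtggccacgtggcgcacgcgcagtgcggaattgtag
Iars (chr13:49681880-49682179, plus strand): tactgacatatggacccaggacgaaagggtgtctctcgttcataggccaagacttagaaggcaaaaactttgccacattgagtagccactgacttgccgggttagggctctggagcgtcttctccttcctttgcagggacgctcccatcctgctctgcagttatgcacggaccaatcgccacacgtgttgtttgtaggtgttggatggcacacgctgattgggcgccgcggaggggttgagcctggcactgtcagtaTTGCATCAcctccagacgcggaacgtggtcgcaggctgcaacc
Gars (chr6:55037751-55038050, plus strand): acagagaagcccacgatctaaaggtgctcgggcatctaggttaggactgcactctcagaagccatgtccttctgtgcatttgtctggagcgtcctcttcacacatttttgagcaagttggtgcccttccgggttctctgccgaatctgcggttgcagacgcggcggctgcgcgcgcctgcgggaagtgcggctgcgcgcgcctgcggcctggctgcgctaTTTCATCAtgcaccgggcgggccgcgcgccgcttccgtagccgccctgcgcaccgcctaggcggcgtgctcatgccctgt
Yars (chr4:129189653-129189952, plus strand): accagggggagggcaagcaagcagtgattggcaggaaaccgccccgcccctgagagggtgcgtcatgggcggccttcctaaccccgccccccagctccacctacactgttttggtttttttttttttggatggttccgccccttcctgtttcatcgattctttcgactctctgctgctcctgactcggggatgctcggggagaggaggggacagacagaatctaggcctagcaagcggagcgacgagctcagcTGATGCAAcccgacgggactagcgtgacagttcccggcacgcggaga
Qars (chr9:108507755-108508054, plus strand): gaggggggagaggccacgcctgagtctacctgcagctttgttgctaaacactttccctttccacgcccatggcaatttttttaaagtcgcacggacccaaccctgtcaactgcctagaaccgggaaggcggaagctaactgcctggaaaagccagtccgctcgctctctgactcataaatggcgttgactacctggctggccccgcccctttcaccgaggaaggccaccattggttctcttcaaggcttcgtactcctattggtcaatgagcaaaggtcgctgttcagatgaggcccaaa
The match starts at base 236 of the 300 in Tars, 258 in Iars, 254 in Yars and 221 in Gars, where the gene starts after base 250. Iars and Tars carry the same 8 letters in the same orientation, and Yars the same element on the other strand. The log2 differences of these genes were -0.38 in Tars, -0.30 in Iars, -0.15 in Gars and -0.08 in Yars, with a median of -0.23, and the 7 cytosolic genes with a promoter and no match had a median of -0.17. A match is only a run of letters, and binding was not measured.

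The neighbouring steps of translation gave few differences. Of 12 cytosolic elongation and release factors 1 was lower at an unadjusted p under 0.05 in limma, beside 3.76% of all genes lower and 2.89% higher. It was Eef1d, a subunit of the factor that recharges eEF1A with GTP. Eef1d read 7.22, 7.34 and 7.26 in the controls, against 6.96, 6.85 and 7.05 in Sirt1-deficient pancreata, without overlap, a log2 difference of -0.32 (standard error 0.11, adjusted p = 0.640 from limma), not under an unadjusted 0.05 without the Sirt1-deficient pancreas 2. Of 7 genes of the selenocysteine tRNA pathway and of 4 measured genes of tRNA proofreading and related steps (Prorsd1, Dtd1, Dtd2 and Tarsl2), none had a p under 0.05 in limma, with medians of -0.01 and 0.018. Tarsl2 is itself a threonyl-tRNA synthetase-like gene, which the rule on names left out of the members.

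Markers of other cell types differed between the genotypes in part. The 8 measured acinar markers had a mean log2 level of 12.12 to 12.18 in the control and 12.13 to 12.20 in the Sirt1-deficient pancreata, and a median difference of 0.01 with 3 negative values, and Ptf1a, an acinar transcription factor, was the 1 marker higher at an unadjusted p under 0.05, by 0.31. The 8 islet markers ran from 7.89 to 8.39 in the control and from 7.70 to 8.07 in the Sirt1-deficient pancreata, with 7 negative values and a median of -0.37, and Ppy, the pancreatic polypeptide gene, was lower at an unadjusted p under 0.01, by a log2 difference of -0.83, and Gcg, the glucagon gene, at 0.05, by -0.53 with overlapping groups. On the centred scale the islet markers read 0.303, -0.147 and 0.360 in the controls, against -0.335, 0.040 and -0.221 in Sirt1-deficient pancreata, so that, as for the synthetases, the Pdx1Cre pancreas 2 was the lowest control. Among the Sirt1-deficient pancreata the islet markers were highest in pancreas 2, whereas the synthetases of both classes were highest in pancreas 3. The 6 fibroblast markers were all negative, with a median of -0.18 and Lum, the gene of the matrix protein lumican, lower at 0.05 (-0.29), and their mean level ran from 7.03 to 7.23 in the control and from 6.87 to 7.12 in the Sirt1-deficient pancreata. The 6 macrophage markers were all negative too, with a median of -0.20 and levels of 5.75 to 5.89 against 5.45 to 5.89, and Cd163, a scavenger receptor gene, was lower at 0.05 (-0.25). The 5 endothelial markers had 4 positive values and a median of 0.21, and their level did not overlap, at 6.27 to 6.57 against 6.60 to 6.67. Kdr, a receptor for VEGF (0.37), and Cdh5, the endothelial cadherin (0.32), were higher at 0.05. Duct, adipocyte and lymphocyte markers had medians of -0.06, 0.03 and -0.08, and of these Krt19, a duct keratin (0.26), was higher at 0.05. Over all genes, 3.76% were lower and 2.89% higher at an unadjusted p under 0.05 in limma. The part of the marker shifts in the synthetase values was not tested.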

How the data were processed

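The deposited values are log2 expression values, which, per the authors' methods, come from RMA in the oligo package (background correction, quantile normalization between arrays, 1 summary per transcript cluster) and were tested with limma by them; the sources used here give neither package versions nor the build behind the array. Single probes were not used, so background and summary could not be varied. Of 41345 clusters, 23521 had 1 gene symbol in the platform annotation, and 22180 genes remained with 1 cluster each. The genotype difference was fitted in R 4.3.3 by limma 3.58.1, with lmFit and eBayes without covariates, on all genes, with Benjamini-Hochberg adjustment over all of them. The fit was first tested on simulated data. All 34 synthetase genes matched a RefSeq gene ID. The labels do not say whether pancreata shared a litter or day, so such sharing could not be entered in the fit. The p-values set each group difference against the spread between samples within the groups, and precision is limited by having 6 arrays.

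The members, the gene lists and the subsets (complex, ATF4 targets, catalytic class, cell type markers) were written from general knowledge and chosen with earlier results of these data known. The value of every array is given for members with an unadjusted p under 0.05 and for the 3 further members of each class with the largest difference; from other lists up to 4 genes with a p under 0.05 are named. Alternatives included median centring, repeated quantile normalization, removal of dim genes (1105 olfactory receptor genes set the limit), a trended and robust prior, array quality weights, a replicate block, the mean of a gene's clusters, each array left out in turn and other thresholds. Protein sequences were not used here.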

Additional observations from a re-analysis of the deposited data

How the results depend on the processing

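The number of synthetase genes lower at an unadjusted p under 0.01 in limma was 1, and also 1 with arrays centred on their median, without dim genes, with the clusters of a gene averaged and with the replicate block. It was 2 after a second quantile normalization, 4 with an intensity trend and robust moderation and 5 with array weights, where the count over all genes went from 197 to 265, 227 and 332, and ran from 1 to 4 with single arrays left out (4 without the Pdx1Cre pancreas 2 and 3 without the Sirt1-deficient pancreas 3). At an unadjusted p under 0.05 it was 6 and after adjustment 0. No synthetase gene was higher under any of these settings at 0.01; at 0.05 Lars was higher after a second quantile normalization, without dim genes, with the intensity trend, the replicate block or the mean of clusters and without the Sirt1-deficient pancreas 2. The cytosolic median ran from -0.23 to -0.13 over all settings. The mitochondrial median was -0.031 and ran from -0.099 to 0.0021 with single arrays left out, the positive value being that without the Pdx1Cre pancreas 1. The cause was not tested. Of 156 values of the 12 genes given array by array, 143 kept their direction and their side of 0.01 and 13 passed it in addition, and none changed sign. Only Rars was under 0.01 in the main fit, so most of the 143 were above 0.01 in both fits. A loss of a p under 0.05, which all but Rars of the 6 genes had with some array left out, is not counted here.

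Whether same-numbered arrays of the groups form pairs cannot be settled with 3 arrays per group. Deviations from the group means of same-numbered arrays correlated at -0.11, 0.16 and 0.16 over all genes, and 4 of 6 arrays correlated best with their own number. With the replicate block 7 synthetase genes were lower and 1 higher at an unadjusted p under 0.05, beside 922 and 707 of all genes, which were 835 and 642 without it. Medians and counts rest on 3 arrays per group, and exact permutation tests of single genes cannot go below 0.1.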
